A study of Homo sapiens with 6 samples.

Results

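The insulin-like growth factor (IGF) system is a secreted growth signal with its own receptors and its own carriers. IGF1 and IGF2 bind IGF1R, a tyrosine kinase closely related to the insulin receptor INSR, and both receptors pass the signal on through docking proteins such as IRS1. IGF2R, also known as the cation-independent mannose 6-phosphate receptor, has no kinase: it takes IGF2 up for degradation and carries lysosomal enzymes to lysosomes. The IGF binding proteins (IGFBPs) are secreted, hold most of the IGF outside the cell and are cut by proteases such as PAPPA, and IGFBP7 is a relative that binds IGFs weakly. In ovarian carcinoma the system has long been studied as an autocrine and paracrine growth signal.

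Described here are 10 genes of this system, of 60483 genes listed: the binding proteins IGFBP2, IGFBP3, IGFBP4, IGFBP5, IGFBP6 and IGFBP7, the receptors IGF1R, IGF2R and INSR, and the docking protein IRS1. They were picked by symbol with the KO against WT differences of these same libraries already known, so their differences are given as a description, with no test. RNA was sequenced from A2780 cells, a human ovarian carcinoma line. The WT group (3 libraries) is the A2780 line with intact CDK12, and the KO group (3 libraries) is A2780 with CDK12, a kinase of transcription elongation, knocked out by CRISPR/Cas9 against its exon 1. All cells grew in RPMI medium with serum, and the labels give no other treatment. The KO group is 1 clone, with a higher DNA content than its parental cells by the study's account, so an effect of the knockout and a property of that clone cannot be told apart. Nothing in the labels says that the libraries of a group came from separate cultures, so p-values measure the spread between these libraries, which may be technical.

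Total counts, the reads assigned to genes, ran from 11098400 to 30899045 per library, and 3 counts correspond to 0.1001 to 0.270 CPM (counts per 1000000 counts) depending on the library. Levels are given in CPM scaled by TMM, with the SD over 3 libraries. A gene is called up-regulated or down-regulated here when edgeR's quasi-likelihood test gives an adjusted p (Benjamini-Hochberg, over 16198 genes) under 0.05 and its log2 fold change exceeds 1 in that direction. CDK12 itself had 2831, 3759 and 1294 counts in WT and 2432, 2504 and 1818 in KO, or 115 ± 11.1 against 98.0 ± 4.64 CPM, with every KO library below every WT library. Counts per gene do not show the edited exon, so this checks the labels only weakly. Of 10 ovarian or Müllerian carcinoma markers, KRT8, KRT18 and EPCAM were present, while 4 (KRT7, MUC16, SOX17, EMX2) had at most 3 counts in any library and PAX8 and WT1 at most 6. The summed level of that list was 68.8 to 75.0 CPM in WT and 116 to 121 CPM in KO, most of it KRT18 at 58.1 to 62.0 and 101 to 106 CPM. KRT8 and MSLN were also above their WT levels in every KO library, while EPCAM (log2 fold change -0.53) and PAX8 (14 counts in all in WT, 4 in KO) were below theirs. KRT8 and KRT18 were thus present, while KRT7 and the defining Müllerian factors were absent or near 0. Leukocyte markers summed to 0.630 to 1.02 CPM in WT and 0.651 to 1.15 CPM in KO. CD14, the only one of these 5 that could be tested, was up-regulated, beside 8.30% of all genes tested. PTPRC and CD3E had 3 counts or fewer in any library. CD68, too low to be tested, had 8, 11 and 1 counts in WT and 0, 1 and 1 in KO, and LYZ 6, 2 and 0 against 1, 3 and 0. Endothelial markers summed to 0.146 to 0.367 CPM in WT and 0.730 to 0.929 CPM in KO. VWF, the only one of these 5 that could be tested, was up-regulated. Fibroblast markers summed to 5236 to 5369 CPM in WT and 2694 to 2826 CPM in KO. Of these 6, 5 were down-regulated, beside 7.73% of all genes tested, and DCN and LUM were at 0 in the KO libraries. Most of that sum was COL1A2, at 4577 ± 67.0 CPM in WT and 2623 ± 57.0 CPM in KO (log2 fold change -0.80), the one not called. The part of these markers in the differences below was not tested. The libraries are of a cultured line and 1 clone of it, so the markers are given as RNA levels. In bulk RNA, fewer cells that express a gene and less RNA per cell cannot be told apart.

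In CDK12 KO cells IGFBP4 RNA was nearly absent and IGFBP5 RNA, nearly absent in WT, was present in all 3 libraries. IGFBP6 and IGF1R RNA were 5.82-fold and 2.38-fold higher in KO, IGFBP2 and IGF2R were higher by less, INSR was near its WT level, IRS1 was slightly lower, and IGFBP3 was low in WT and lower still in KO. IGFBP7 had no count in any library. Of the 10 genes, 9 had enough reads to enter that fit; 3 lay past both thresholds upward (IGFBP5, IGFBP6, IGF1R) and 2 downward (IGFBP3, IGFBP4). Over all genes tested, 8.30% were up-regulated and 7.73% down-regulated. By the adjusted p alone, 31.9% of all genes were higher and 32.0% lower in KO, beside 5 and 3 of the members. The libraries of the groups did not overlap for 66.4% of all genes tested, 32.8% with KO above and 33.5% with KO below, beside 5 and 3 of the members. As the genes were chosen on this contrast, nothing is read from their counts beside these shares.

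**Figure D1:**
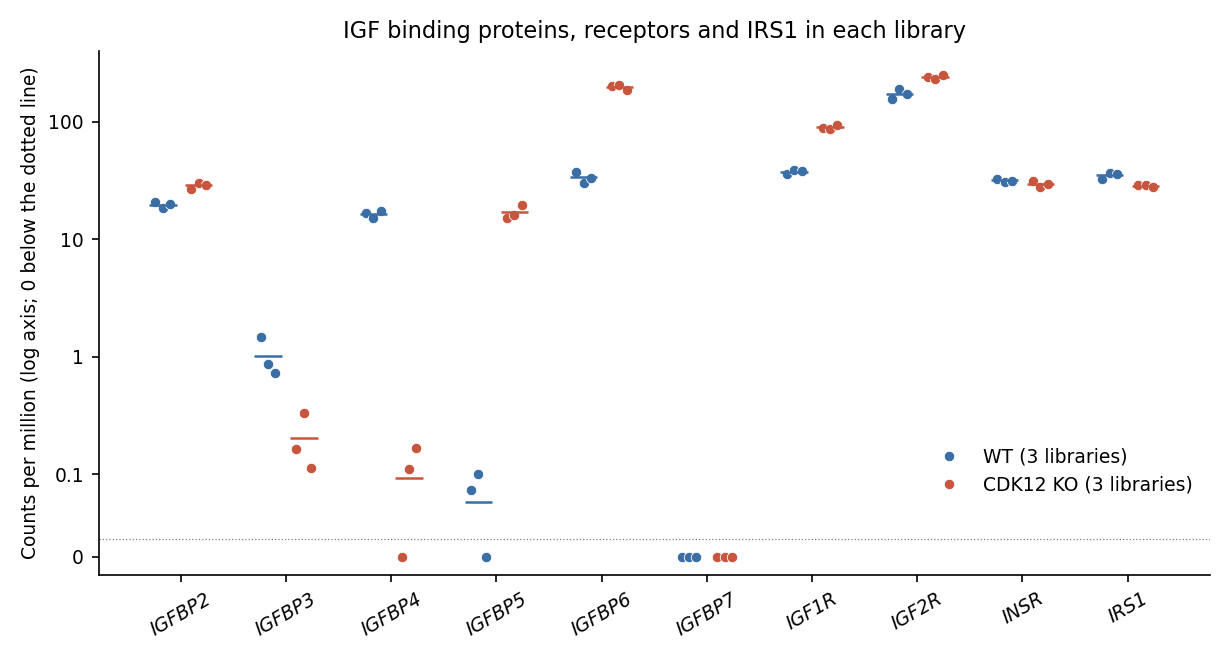
CPM of the 10 genes in each library on a log axis, with WT in blue, CDK12 KO in red, a point per library and a short line at the group mean; values of 0 are drawn below the dotted line. IGFBP4 and IGFBP5 trade places between the groups, IGFBP6 and IGF1R are higher in all 3 KO libraries, INSR overlaps, and IGFBP7 is at 0 throughout.

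IGFBP4, a carrier that mainly restrains IGF action and is released by the protease PAPPA, lies on chromosome 17 from 40443450 to 40457725 on the plus strand (GRCh38, GENCODE 44). It had 457, 453 and 191 counts in WT and 0, 3 and 3 in KO, that is 16.7, 15.1 and 17.2 CPM against 0, 0.111 and 0.169 CPM. Every WT library was far above every KO library, where the counts are at or under the floor of 3. Summed over libraries and scaled for depth, WT was 186-fold above KO, with a 95% interval from counting error of 85.0 to 507. The fitted log2 fold change of -7.46 (SE 0.237) depends on how the fit treats near-zero counts. It was -6.86 without KO replicate 1, the library at 0. The SE given here is derived from the fold change and the F value of the test. For IGFBP4 it is narrower than the counting interval, so it understates the error.

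IGFBP5, a carrier bound by extracellular matrix that can restrain or enhance IGF action, lies on chromosome 2 from 216672105 to 216695549 on the minus strand. Its counts were 2, 3 and 0 in WT and 369, 433 and 347 in KO, or 0.0730, 0.1001 and 0 CPM against 15.02, 16.1 and 19.5 CPM. The WT counts are at or under the floor, and every KO library is far above them, the reverse of IGFBP4. Scaled for depth, KO was 227-fold above WT (95% counting interval 97.0 to 701).

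IGFBP6, a carrier that prefers IGF2, lies on chromosome 12 from 53097436 to 53102345 on the plus strand. It had 1029, 908 and 371 counts in WT and 4925, 5454 and 3312 in KO, equal to 37.6, 30.3 and 33.4 CPM against 200.4, 202.6 and 186.1 CPM. The lowest KO library lay well above the highest WT library. The log2 fold change was 2.54 (SE 0.0626), and in both groups the SD over libraries was small beside that difference (3.64 CPM in WT and 8.97 CPM in KO).

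The start regions of these 3 genes are shown because IGFBP4 and IGFBP5 are almost switched between the groups and IGFBP6 makes up most of the binding protein RNA. They are RefSeq promoters of build GRCh38.p14, 250 bases before to 50 bases after the annotated start, written 5′ to 3′ on the strand of the gene, with CpG dinucleotides (CG) in capitals. They lie at chr17:40443200-40443499 (IGFBP4, plus strand), chr2:216695500-216695799 (IGFBP5, minus strand) and chr12:53097417-53097716 (IGFBP6, plus strand). For IGFBP6 the RefSeq start is base 53097667, inside the gene span given above; for IGFBP4 and IGFBP5 the starts are the same in both.
IGFBP4: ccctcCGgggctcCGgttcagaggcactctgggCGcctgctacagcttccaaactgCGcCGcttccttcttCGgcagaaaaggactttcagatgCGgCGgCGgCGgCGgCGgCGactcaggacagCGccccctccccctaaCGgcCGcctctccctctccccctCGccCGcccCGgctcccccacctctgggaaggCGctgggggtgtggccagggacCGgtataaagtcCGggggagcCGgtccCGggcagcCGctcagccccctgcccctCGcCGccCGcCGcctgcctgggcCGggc
IGFBP5: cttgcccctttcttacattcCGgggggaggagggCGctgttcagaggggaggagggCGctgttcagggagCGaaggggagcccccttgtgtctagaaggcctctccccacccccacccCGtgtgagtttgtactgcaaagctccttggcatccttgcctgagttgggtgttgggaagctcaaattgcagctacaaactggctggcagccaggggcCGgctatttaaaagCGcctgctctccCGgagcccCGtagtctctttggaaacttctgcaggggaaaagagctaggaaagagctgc
IGFBP6: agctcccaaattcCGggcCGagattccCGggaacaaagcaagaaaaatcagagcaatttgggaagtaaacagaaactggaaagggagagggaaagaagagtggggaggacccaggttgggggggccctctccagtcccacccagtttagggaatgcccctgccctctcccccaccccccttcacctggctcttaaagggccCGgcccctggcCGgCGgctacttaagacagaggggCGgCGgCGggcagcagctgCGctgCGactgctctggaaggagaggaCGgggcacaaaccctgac
The IGFBP4 window held 30 CpG dinucleotides and a GC content of 74.0%, the IGFBP5 window 9 and 59.0%, and the IGFBP6 window 12 and 61.7%. Over 35116 RefSeq promoters of this length the median was 14 CpG dinucleotides, with quartiles of 4 and 28, and the median GC content was 58.7%. IGFBP4 thus lay at the 77.6th percentile by CpG count, and IGFBP5 and IGFBP6 at the 41.6th and 46.9th. The letters TATAAA, searched on both strands, occur in 11.5% of all these promoters. Among the 9 promoters matched (IGFBP7 was not matched) they occur in that of IGFBP4, 29 bases before the start. The promoters of IGF1R, IRS1 and IGF2R held the most CpG dinucleotides, 55, 47 and 41, followed by INSR and IGFBP3 with 36 each, and that of IGFBP2 held 8. DNA methylation was not measured here.

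IGFBP2, a carrier often high in carcinomas, lies on chromosome 2 from 216632828 to 216664436 on the plus strand. It had 563, 553 and 221 counts in WT and 662, 814 and 516 in KO, or 20.5, 18.5 and 19.9 CPM against 26.9, 30.2 and 29.0 CPM. The groups did not overlap, and the log2 fold change of 0.55 (SE 0.0710) stayed under the fold threshold. IGFBP2 and IGFBP5 face each other tail to tail 7.669 kb apart with no other tested gene between them, so a gene with a 1.47-fold difference adjoins one that went from near 0 to 16.9 ± 2.34 CPM.

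IGFBP3, the main carrier of IGFs in blood, lies on chromosome 7 from 45912245 to 45921874 on the minus strand. It was scarce in both groups, with 40, 26 and 8 counts in WT and 4, 9 and 2 in KO, or 1.46, 0.868 and 0.720 CPM against 0.163, 0.334 and 0.112 CPM. The groups did not overlap, though the WT libraries were spread widely around their mean of 1.02 ± 0.391 CPM. Scaled for depth, WT was 4.99-fold above KO (95% counting interval 2.84 to 9.37). The log2 fold change was -2.29 (SE 0.387), and it was -1.91 without WT replicate 1 and -2.88 without KO replicate 2. IGFBP7 (chromosome 4, 57030773 to 57110385, minus strand) had 0 counts in all 6 libraries, which allows up to 3 counts, or 0.1001 to 0.270 CPM, in a library. It overlaps POLR2B on the opposite strand, a gene with 18564 counts in WT and 19156 in KO.

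The make-up of binding protein RNA was compared on a scale that takes gene length into account, CPM per kilobase of annotated exon. On this scale the 6 genes summed to 40.1, 33.5 and 37.0 in the WT libraries and to 156.9, 159.5 and 147.5 in the KO libraries. IGFBP6 differed by more than the sum did, at 25.1 ± 2.70 in WT and 145.9 ± 6.66 in KO, since IGFBP4 differed in the other direction. IGFBP6 took 68.0% ± 1.35 of the sum in WT and 94.3% ± 0.569 in KO, and so was the main carrier RNA of both groups. IGFBP4 and IGFBP2 made up nearly all of the rest in WT cells. IGFBP4 took 20.1% ± 1.16 in WT and 0.0278% ± 0.0261 in KO, and IGFBP2 took 11.3% ± 0.423 and 3.92% ± 0.271. IGFBP5 reached 1.69% ± 0.306 of the KO sum, while IGFBP3 held 0.597% ± 0.187 in WT and 0.0284% ± 0.0154 in KO. The shares depend on the length used: from counts alone, IGFBP6 held 47.6% in WT and 81.0% in KO, and IGFBP5 6.98% in KO.

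IGF1R, the kinase receptor for both IGFs, lies on chromosome 15 from 98648539 to 98964530 on the plus strand. It had 985, 1161 and 418 counts in WT and 2168, 2317 and 1652 in KO, or 35.9, 38.7 and 37.6 CPM against 88.2, 86.1 and 92.8 CPM. The libraries of each group lay close together and the groups far apart, with a log2 fold change of 1.25 (SE 0.0556). An antisense RNA, SYNM-AS1, overlaps its 3′ end on the opposite strand with 142 counts in WT and 3 in KO in all; whether strand was used in the counting is not given in the sources used here.

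IGF2R (chromosome 6, 159969082 to 160113507, plus strand) was at 156, 189 and 170 CPM in WT and 239, 229 and 249 CPM in KO. The groups did not overlap, although the WT libraries were more spread (SD 16.5 CPM) than the KO libraries (SD 10.2 CPM), and the log2 fold change was 0.48 (SE 0.0555). INSR (chromosome 19, 7112255 to 7294414, minus strand) was at 32.7, 30.4 and 31.5 CPM in WT and 31.3, 27.5 and 29.4 CPM in KO. It was the one member with reads whose groups overlapped, with a log2 fold change of -0.10 and a 95% interval of -0.23 to 0.03. IRS1 (chromosome 2, 226731312 to 226799820, minus strand) was at 32.2, 36.6 and 35.5 CPM in WT and 28.9, 28.7 and 27.8 CPM in KO. Every KO library was below every WT library, and the log2 fold change was -0.29 (SE 0.0649).

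The balance between the receptors differed between the groups accordingly. Per exon length, IGF1R stood at 0.853, 0.991 and 0.928 times INSR in the WT libraries and at 2.19, 2.43 and 2.45 times INSR in the KO libraries. IGF2R stood at 2.82 ± 0.167 times IGF1R in WT and 1.65 ± 0.0139 times in KO. IGF1R stood at 0.775 ± 0.0234 times IRS1 in WT and 2.25 ± 0.133 times in KO. No library of either group reached the range of the other in these 3 ratios, each of which rests largely on IGF1R. The ratios depend on the length used, while their fold between the groups does not. For IGF2R the union of exons is 22613 bases and the longest transcript 14231.

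Ordered by per-length level, the WT cells had IGFBP6 first, then IGF2R at 7.59 ± 0.728 and IGFBP4 at 7.41 ± 0.491, which overlapped. IGFBP2 followed at 4.14 ± 0.226, IRS1 at 3.47 ± 0.229, INSR at 2.91 ± 0.109 and IGF1R at 2.69 ± 0.101, none of which overlapped its neighbour in the order. Carriers and receptors were thus interleaved, and scarce genes followed at a distance. IGFBP3 stood at 0.222 ± 0.0857 and IGFBP5 at 0.00892 ± 0.00801. In KO, IGFBP6 was followed by IGF2R at 10.6 ± 0.452, then by IGF1R at 6.39 ± 0.247 and IGFBP2 at 6.06 ± 0.351, which overlapped. IRS1 at 2.84 ± 0.0603, INSR at 2.72 ± 0.174 and IGFBP5 at 2.61 ± 0.362 could not be ordered beyond their spread. IGFBP3 at 0.0445 ± 0.0255 and IGFBP4 at 0.0423 ± 0.0389 also overlapped at the lower end. IGF1R was thus the lowest of the receptors and IRS1 in WT, and above INSR and IRS1 in KO.

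The other genes of the system were taken from lists of 85 genes, of which 65 could be tested. They comprised 8 up-regulated and 13 down-regulated genes and 44 past neither direction, beside 8.30% and 7.73% of all genes. Their median log2 fold change was -0.09, against 0.00 over all genes tested. The lists were chosen with earlier results of these data known, so nothing is read from their counts beside these shares. For the same reason the adjusted p-values below, from edgeR's quasi-likelihood test, are given as a description. Named genes without a call carry their values only. Of these 21 calls, 20 were kept in all of 12 alternative settings in which the gene could be tested.

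Ligand RNA was scarce. IGF1, INS and the read-through gene INS-IGF2 had 0 counts in every library, and IGF2 had 1, 1 and 0 counts in WT and 14, 6 and 10 in KO. IGF2 was too low to be tested; scaled for depth its KO counts were 14.8-fold above WT (95% counting interval 3.76 to 128). INS-IGF2 overlaps IGF2 on the same strand, so reads of IGF2 may have gone uncounted as ambiguous.

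Among 4 tested proteases of IGFBPs and their inhibitors, 1 was up-regulated and 1 down-regulated, beside 8.30% and 7.73% of all genes. PAPPA, the metalloprotease that cleaves IGFBP4, was down-regulated from 85.1 ± 6.56 to 0.630 ± 0.101 CPM (log2 fold change -7.08, adjusted p = 1.44e-31 by edgeR). Scaled for depth, PAPPA counts in WT were 136-fold above KO (95% counting interval 101 to 188.5). PAPPA2, a relative of PAPPA that cleaves IGFBP3 and IGFBP5, had 0, 2 and 0 counts in WT and 18, 14 and 15 in KO (adjusted p = 4.17e-07 by edgeR). The ratio was 23.2 (95% counting interval 6.08 to 197). In KO cells IGFBP4 and PAPPA RNA were both low, and IGFBP5 and PAPPA2 RNA were both present, PAPPA2 at only 0.698 ± 0.164 CPM. IGFBP3, the other carrier named for PAPPA2, went the other way and was lower in KO (log2 fold change -2.29). A link between these levels was not tested. The fitted log2 fold change of PAPPA2, 4.31, was 6.88 without WT replicate 2, the one WT library with counts. Of the other tested genes of this list, STC2, an inhibitor of PAPPA, had a log2 fold change of 0.87 and the protease ADAM9 one of -0.79.

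Among 15 other genes with an IGFBP domain or bound to IGFBPs, 6 could be tested. The matricellular proteins CCN1 and CCN2, also named CYR61 and CTGF, were down-regulated, CCN1 from 1074, 1050 and 397 counts to 17, 17 and 7 (log2 fold change -5.94, SE 0.132, adjusted p = 8.08e-28). CCN2 had a log2 fold change of -5.72 (SE 0.167, adjusted p = 2.02e-24). HTRA1, a secreted protease with an IGFBP domain, was up-regulated from 23.1 ± 0.604 to 66.5 ± 1.54 CPM (log2 fold change 1.52, adjusted p = 5.61e-21). IGFBP1 had 0 counts in all libraries.

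Behind the receptors, 2 of 12 tested adaptors and substrates were up-regulated and 1 was down-regulated, beside 8.30% and 7.73% of all genes. IRS2, the other main docking protein, was up-regulated from 9, 12 and 0 counts to 103, 73 and 49 (adjusted p = 2.11e-11), while IRS1 was not past the fold threshold. Its level went from 0.243 ± 0.213 to 3.22 ± 0.843 CPM, and WT replicate 3, the shallowest library, is the one at 0. IRS4 had 0 counts in WT and 9, 16 and 4 in KO, too few to be tested. SHC1, an adaptor to the RAS pathway, was up-regulated from 698 ± 21.9 to 1655 ± 62.7 CPM (adjusted p = 1.06e-20), and the docking protein DOK5 was down-regulated (log2 fold change -1.61, adjusted p = 5.06e-08). The other 9 tested adaptors passed in neither direction.

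Of 10 tested negative regulators, 4 were down-regulated and 0 up-regulated, beside 7.73% and 8.30% of all genes. By edgeR's adjusted p alone, 5 were lower and 2 higher, beside 32.0% and 31.9% of all genes. GRB14, which binds the insulin receptor and inhibits its kinase, had 542, 602 and 229 counts in WT and 4, 2 and 2 in KO (adjusted p = 8.16e-26), with WT 174-fold above KO (95% counting interval 87.9 to 403). SOCS2, a feedback inhibitor of cytokine and growth hormone signalling that can bind IGF1R, was down-regulated from 63.5 ± 3.59 to 1.32 ± 0.0732 CPM (adjusted p = 2.03e-30). SOCS3, of the same family, was down-regulated from 31.5 ± 1.49 to 0.748 ± 0.356 CPM (adjusted p = 8.16e-26). PTPRF, a receptor phosphatase, was down-regulated from 549 ± 25.4 to 69.6 ± 0.697 CPM (adjusted p = 9.39e-31). GRB10, the close relative of GRB14, had a log2 fold change of -0.06 and PTPN1, the phosphatase PTP1B, one of 0.14.

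The genes that make or use the mannose 6-phosphate route of IGF2R passed in neither direction, all 11 of them, with a median log2 fold change of -0.01. Over all genes, 16.0% were called in either direction. By edgeR's adjusted p alone, 3 of them were higher and 5 lower in KO, beside 31.9% and 32.0% of all genes. The value farthest from 0 was that of PLAUR (-0.91), the urokinase receptor that IGF2R can bind, and GNPTAB, which adds the mannose 6-phosphate tag, was at 0.47, near the value of IGF2R itself. Among 5 tested processing genes, the proprotein convertase PCSK5 was up-regulated from 0, 0 and 1 counts to 31, 31 and 35 (adjusted p = 1.92e-10), a ratio of 95.9 with a 95% counting interval of 16.8 to 3824, and its fitted log2 fold change of 6.14 was 8.16 without WT replicate 3. FURIN, the convertase known to cleave the receptor precursors, had a log2 fold change of -0.25. All 3 IGF2 mRNA binding proteins were down-regulated, beside 7.73% of all genes. IGF2BP1 went from 491 ± 40.3 to 4.27 ± 0.197 CPM (adjusted p = 9.62e-36 by edgeR). IGF2BP3 went from 1469, 1551 and 527 counts to 1, 0 and 1 (adjusted p = 2.97e-30 by edgeR). IGF2BP2 went from 130.1 ± 4.70 to 64.3 ± 2.06 CPM. The IGF2BP2 call was lost with upper-quartile scaling, with at least 10 counts in every library and without WT replicate 2, since its log2 fold change of -1.02 lies at the threshold, and the fitted value of IGF2BP3, -10.55, was -9.92 without KO replicate 2.

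The 10 tested genes on each side of each member were looked at to see what surrounded it on the chromosome. Over 180 such genes, 23 were up-regulated and 18 down-regulated, beside 8.30% and 7.73% of all genes. Around IGFBP4 the nearest tested gene upstream was not called. Downstream, the 3 nearest tested genes were all up-regulated, opposite to IGFBP4: ENSG00000279806 (log2 fold change 4.16), TNS4, a tensin of focal adhesions 18.1 kb away (3.36, adjusted p = 1.32e-25), and CCR7, a chemokine receptor (2.90). ENSG00000279806 lies just beyond the 3′ end of TNS4 on the same strand. Around IGFBP2 and IGFBP5, CATIP was the one call among the 19 further genes of each window, up-regulated at a log2 fold change of 1.32, so IGFBP5 stood nearly alone among its tested neighbours.

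IGF1R had 7 up-regulated and 2 down-regulated genes among its 20 neighbours, beside 8.30% and 7.73% of all genes. These neighbours spanned 8392 kb, with a median log2 fold change of 0.69. On one side the nearest was ARRDC4, an arrestin-like protein 675 kb away, at a log2 fold change of 2.67 (adjusted p = 2.1e-20 by edgeR). The nuclear receptor NR2F2, 2308 kb away, was at 1.58, and RGMA, 5559 kb away, at 1.90. On the other side SYNM-AS1 (-5.43) and PGPEP1L (-4.87), 3.699 kb from IGF1R, were down-regulated, and LUNAR1, a long non-coding RNA, was up-regulated at 2.29. Some other adjacent tested genes also lay far off. TNS3, 1353 kb from IGFBP3, was down-regulated (-3.28, adjusted p = 1.92e-19), while GTF2IP13, 129 kb away on the other side, was at 0.67 and not called. DOCK10, 1689 kb from IRS1, was up-regulated (5.37, adjusted p = 6.05e-23), while RHBDD1, 35.8 kb away on the other side, was at 0.23 and not called. ADGRL3, 4090 kb from IGFBP7, was down-regulated (-2.25, adjusted p = 1.13e-06), and POLR2B, which overlaps IGFBP7, was at 0.03. The adjacent tested genes of IGFBP6, IGF2R and INSR were not called.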

How the data were processed

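The 3 WT and 3 KO libraries were grouped by the genotype in the labels. The authors deposited raw counts per gene, whole numbers with no normalization; the sources name FastQC, STAR, GRCh38 and HTSeq, while versions, the annotation release, the strand setting and the treatment of multi-mapping reads are not given in the sources used here. The library kit was stranded. Identifiers were matched without version to GENCODE 44, which holds 56321 of 60483 genes (93.1%) and gave positions and exon lengths.

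The KO and WT libraries were compared with edgeR 4.0.16 (R 4.3.3) after filterByExpr (minimum count 10, minimum total 15) and TMM scaling, by the two-sided quasi-likelihood test with Benjamini-Hochberg adjustment over 16198 genes. A call needed both an adjusted p below 0.05 and a difference of over 1 on the log2 scale. The SE of a log2 fold change is that value, without its sign, divided by the square root of the test's F value. It can be smaller than counting error where the difference is large and a group is near 0. Per-length levels are CPM (counts per 1000000) per kilobase of the union of exons. Intervals for ratios of counts are exact conditional intervals at 95%; they and the floors of 3 counts cover counting error only, since reads carried no molecular identifiers. On simulated counts for 13603 genes with 200 changed genes, edgeR recovered 200 with 0 false calls, as did voom/limma (limma 3.58.1) and DESeq2 1.42.0. Every simulated difference was well past the fold threshold, genes at or under 1 CPM in WT were left out, and all genes shared the same spread setting. That result covers these settings only and says little about differences near the threshold or genes near 0. Recovery at the extent of difference found here, 2597 calls among 16198 genes, was not tested. The alternatives were voom/limma, DESeq2, and median-of-ratios and upper-quartile scaling. Other filters and thresholds, other gene lengths, a window of 5 neighbours and the omission of each library were also used.

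The members, the gene lists and the markers were chosen with earlier results of these data known. Named are the members, the ligands and IGFBP1, every list gene called, the gene with the largest difference in a list without a call, and called neighbours adjacent to a member or in a run with it; the further list genes and neighbours named were chosen after their values were seen. Python 3.11.15 with pandas 2.3.3, numpy 2.4.6, scipy 1.17.1 and matplotlib 3.10.9 was used for the remaining steps. Splicing and edited alleles were not analysed here. A further leukocyte marker is not reported here.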

Additional observations from a re-analysis of the deposited data

How the results depend on the processing

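Over 105 recomputed log2 fold changes of the 9 members tested, 97 stayed within the spread between libraries and 0 reversed. IGFBP4 was at -7.65 with voom/limma, and with each library left out IGFBP4 ranged from -7.99 to -6.86, IGFBP5 from 7.50 to 8.17 and IGFBP3 from -2.88 to -1.91; these 3 genes have near-zero counts in a group, and they had no value where at least 10 counts were required in every library. That filter left 568 up-regulated and 684 down-regulated genes of all, and 4 and 6 of the IGF system lists, since it removes genes near 0 in a group. With the adjusted p alone these counts were 5165 and 5188, and 25 and 31. With each library left out, 1377 to 1502 genes were up-regulated and 1269 to 1369 down-regulated, and 8 to 9 and 12 to 13 of the lists. In the order of per-length levels, 2 members took another place in KO with the longest transcript as the length, and 0 to 2 in WT and 0 to 4 in KO with a library left out. From counts without length, the WT shares were 27.8% for IGFBP2, 1.42% for IGFBP3, 23.1% for IGFBP4, 0.0833% for IGFBP5 and 47.6% for IGFBP6, and the KO shares 11.9% for IGFBP2, 0.083% for IGFBP3, 6.98% for IGFBP5 and 81.0% for IGFBP6. With the longest transcript, the WT shares were 0.933% for IGFBP3, 18.1% for IGFBP4 and 70.0% for IGFBP6. With 5 neighbours on each side, 11 of 90 genes were up-regulated and 11 down-regulated.

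No paired analysis was possible because the labels number the libraries 1 to 6 and the groups share no number. A count of 0 in a library allows for a level of up to 3 counts at these depths, and counts of 1 to 3 are too few to fix a level.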

Other observations

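Among the FOXO factors, which insulin and IGF signalling keeps out of the nucleus, and genes known as their targets, 14 of 15 listed genes could be tested. SESN3, a sestrin that restrains mTORC1, was up-regulated from 6.25 ± 0.612 to 85.3 ± 8.50 CPM (log2 fold change 3.80, SE 0.0840, adjusted p = 7.87e-28 by edgeR). FBXO32, the ubiquitin ligase atrogin, was up-regulated (2.18, adjusted p = 5.21e-11), as was FOXO6 (1.22, adjusted p = 2.11e-07). FOXO1 was down-regulated from 71.6 ± 2.67 to 32.6 ± 0.898 CPM (log2 fold change -1.14, adjusted p = 4.33e-18), and so was TXNIP (-3.81, adjusted p = 7.65e-07), which had 18, 17 and 11 counts in WT and 2, 1 and 0 in KO and was at -4.62 without KO replicate 1. The list had a median log2 fold change of 0.63, beside 0.00 over all genes. The list thus held 3 up-regulated and 2 down-regulated genes, beside 8.30% and 7.73% of all genes. By edgeR's adjusted p alone, 9 of the 14 were higher and 4 lower, beside 31.9% and 32.0% of all genes. As this list too was chosen with earlier results known, nothing is read from its counts beside these shares.

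Each of IGFBP2, IGFBP3, IGFBP4, IGFBP5 and IGFBP6 has a tensin gene among its tested neighbours, a pairing noticed after the values were seen. Tensins link integrins to actin. TNS3, 1353 kb from IGFBP3, was at a log2 fold change of -3.28 beside IGFBP3 at -2.29. TNS1, 1104 kb from IGFBP5 and 1135 kb from IGFBP2, was at 0.75 beside IGFBP5 at 7.74 and IGFBP2 at 0.55, so these pairs had the same sign. TNS4, 18.1 kb from IGFBP4, was at 3.36 beside IGFBP4 at -7.46, and TNS2, 33.1 kb from IGFBP6, at -1.29 beside IGFBP6 at 2.54, so these pairs had opposite signs. No test was made of this pattern.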
